A study of Homo sapiens with 6 samples.

Results

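The nuclear-encoded subunits of oxidative phosphorylation were taken as the protein-coding rows of the gene table with a symbol of the NDUF, SDH, UQCR (with CYC1), COX or ATP5 subunit families and no hyphen. This rule uses names only and gave 82 of 46427 genes, or 82 of 19672 protein-coding genes. They fall into 38 genes named for complex I, 4 for complex II, 10 for complex III, 12 for complex IV and 18 for complex V (ATP synthase). Assembly factors and genes of the mitochondrial genome are outside the rule and are given at the end.

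MDA-MB-231 is an established human line of metastatic breast cancer with an epithelial origin, and its cells were grown in low glucose DMEM (5.5 mM) with 10% fetal bovine serum. For RNA sequencing, a group of 3 preparations (CTL1 to CTL3) received control-siRNA, and a group of 3 (TAZ1 to TAZ3) received siGENOME siRNA against WWTR1, the gene that encodes the Hippo pathway co-activator TAZ, with DharmaFECT4 as carrier. All cells have the WT genotype, so the comparison is of a transient knockdown in a single line, and the study used it to ask how TAZ bears on migration. Whether the preparations are separate cultures is not stated, so p-values measure the spread between these preparations only.

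The complexes of the inner mitochondrial membrane carry electrons from NADH (complex I) and succinate (complex II) through ubiquinone to complex III, then through cytochrome c to complex IV and oxygen. Complexes I, III and IV pump protons, and ATP synthase uses the gradient to make ATP. Most subunits are made from nuclear genes and imported, and their promoters are known for binding sites of NRF1, GABP (an ETS factor), YY1 and SP1.

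Library totals lay between 48307548 and 71749634 estimated counts, of which the 82 genes held 0.615 to 0.721%. The knockdown was seen in every library, with WWTR1 at 189.7 to 192.4 CPM (counts per normalized library, brought to a common size) in control-siRNA and 15.1 to 17.3 CPM in TAZ-siRNA (log2 fold change -3.53, SE 0.0613, edgeR's quasi-likelihood test, adjusted p = 2.5e-10). Of the 12 genes fixed as cell markers, KRT8, KRT18 and VIM were abundant (496 to 3574 CPM as group means), EPCAM and CDH1 had group means of at most 1.30 CPM, ESR1 and PGR lay near 0 and the leukocyte gene PTPRC had no count. PECAM1 and COL1A1, fixed with PTPRC as markers of other cells, lay above EPCAM. Their group means were 4.7 and 7.2 CPM in control-siRNA and 5.6 and 9.7 CPM in TAZ-siRNA. KRT19 (log2 fold change 0.37, adjusted p = 0.0012) and COL1A1 (0.42, adjusted p = 0.0070) rose in the same edgeR test. Without TAZ3, KRT18 was also called lower (-0.22, edgeR adjusted p = 0.0056) and ERBB2 (0.36, adjusted p = 0.00012) and PECAM1 (0.37, adjusted p = 0.030) higher. TAZ3 stood apart from TAZ1 and TAZ2 in the subunit genes, as described next, so the counts by complex and by list are given with and without it. TAZ3 was picked from the values of these same genes. More lower calls without it are therefore built in, and the counts without TAZ3 are a description only. In bulk RNA, fewer cells of a type and less RNA per cell cannot be told apart.

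With TAZ-siRNA most of the subunit genes had slightly lower values, few of the differences passed the test, and with a correction for transcript length and GC content the median difference was near 0. No test was made on the subunit genes as a group. Of the 82 genes, 80 passed edgeR's expression filter. Among them 9 fell (11.2%) at an adjusted p under 0.05, and 1737 of the 16966 genes tested (10.2%) fell in the same test. None of the 80 rose in edgeR's test or with DESeq2, 1 (NDUFA3) was higher at an unadjusted p under 0.05, and 11.9% of all genes tested rose. A share of 11.2% against 10.2% is near the background. The direction was less even, as 68 of 80 subunit genes had a negative log2 fold change against 50.8% of all genes tested. Their median log2 fold change was -0.09 (a change of -6.23%), with quartiles of -0.15 and -0.03, and the median over all genes was -0.01. The differences were small, since 78 of the 80 genes differed by less than 1.2-fold and 0 by 1.5-fold or more.

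**Figure D1:**
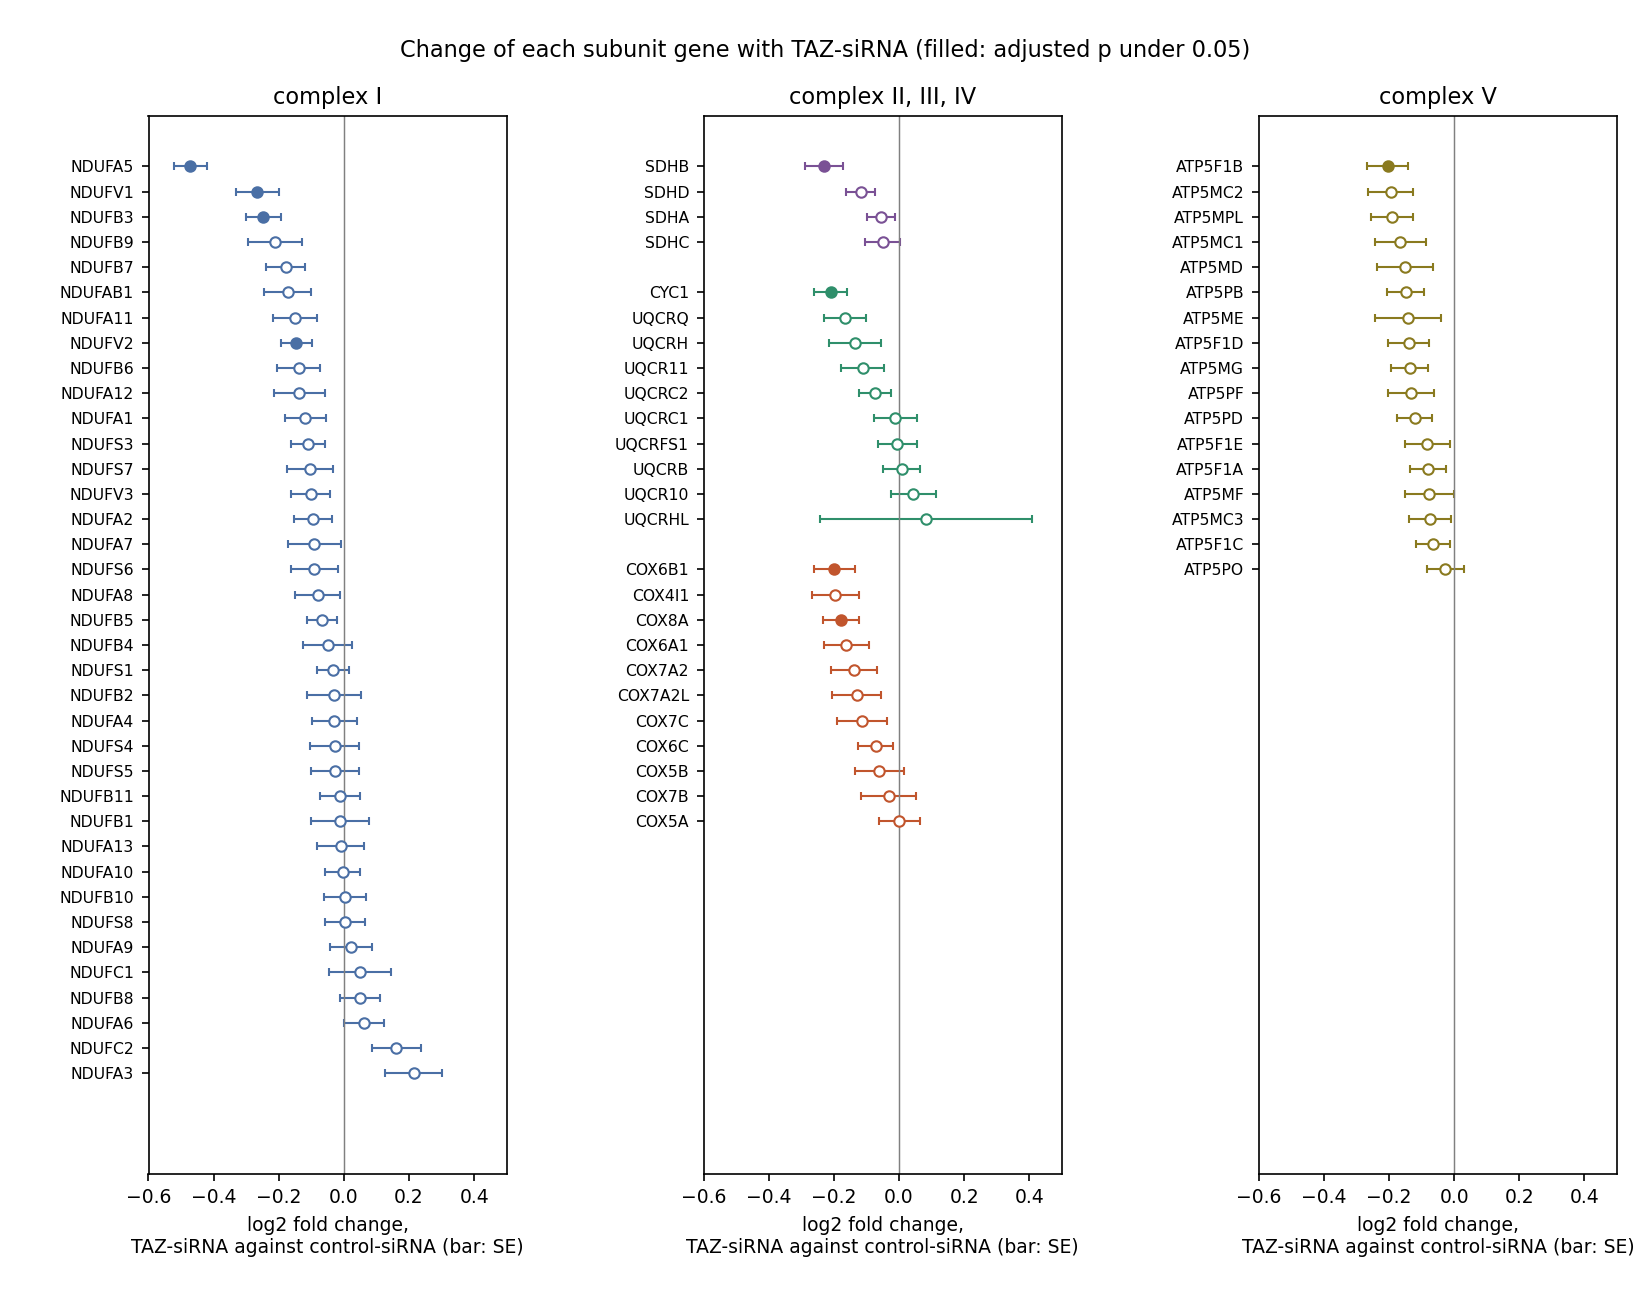
Log2 fold change (TAZ-siRNA against control-siRNA, x axis) of 79 of the 80 subunit genes tested, UQCRHL included, by complex, with SE as bars and filled points for an adjusted p under 0.05 in edgeR's quasi-likelihood test. Most points lie left of 0, 9 are filled and NDUFA5 at -0.47 lies farthest out; with a length and GC correction 30 of the 80 signs turn.

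The summed level of the 82 genes was 6759.2, 6772.8 and 7211.4 CPM in CTL1, CTL2 and CTL3 and 6151.1, 6226.0 and 6863.1 CPM in TAZ1, TAZ2 and TAZ3 (a mean change of -7.25%). TAZ3 lay above CTL1 and CTL2, so the groups overlapped. The median log2 ratio of a subunit gene to its own control mean was -0.03, -0.03 and 0.06 in CTL1, CTL2 and CTL3 and -0.16, -0.13 and 0.0046 in TAZ1, TAZ2 and TAZ3. TAZ1 had 77 and TAZ2 had 72 of the 80 genes below the control mean, whereas TAZ3 had 39. TAZ3 was the highest TAZ-siRNA library in 74 of 80 genes and CTL3 the highest control-siRNA library in 61 of 80. In 55 genes both TAZ1 and TAZ2 lay below all 3 control-siRNA libraries, and in 61 genes TAZ3 lay at or above the lowest of them. These counts by library were not set beside a share over all genes, so whether they are particular to the subunit genes was not tested. Without TAZ3, 36 of the 80 genes were called lower, against 16.1% of all genes in that fit, and the median of the 80 was -0.13. The 36 include all 9 genes called with 6 libraries. The length and GC correction was not run without TAZ3, so whether these calls follow length or GC content was not tested. Leaving out another library lowered the count instead, to 4 without CTL1, 1 without CTL2, 2 without CTL3, 2 without TAZ1 and 2 without TAZ2. The shares of all genes called in these fits were not set beside the counts, so whether the drop is particular to the subunit genes was not tested.

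**Figure D2:**
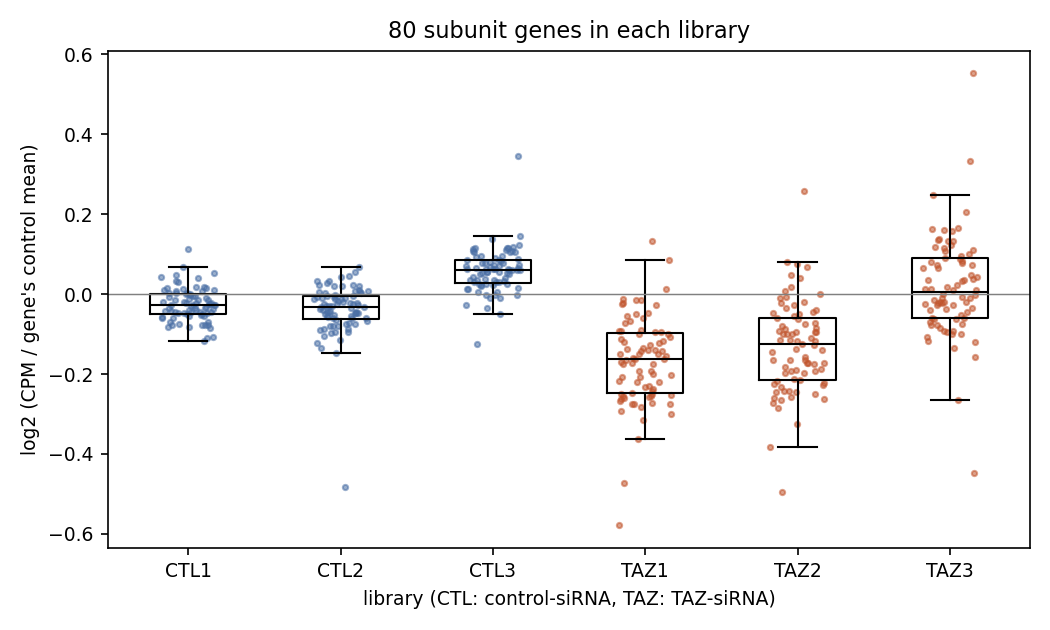
Log2 ratio of CPM to the gene's control mean (y axis) for 80 subunit genes in each library (points), with boxes for the median and quartiles and whiskers to 1.5 times the box height. The medians of TAZ1 and TAZ2 are -0.16 and -0.13, and that of TAZ3 is 0.0046.

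With 3 libraries a group, an exact permutation test of a single gene cannot go below p = 0.1, so the counts above rest on the fit across all genes. The highest TAZ-siRNA value lay under the lowest control-siRNA value in 16 of the 80 genes (20%), and 19.6% of all genes tested showed this. NDUFC2 was the 1 gene with every TAZ-siRNA library above. The spread within groups was small, with a median coefficient of variation of 4.5% in control-siRNA and 7.31% in TAZ-siRNA over the 80 genes. UQCRHL, with 31 to 57 counts per library, was the least precise at 27.8% and 37.5%.

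Transcript length and base composition moved with the result. The mean trend on length and GC content over the subunit genes was 0.04, 0.02 and 0.09 (log2) in CTL1, CTL2 and CTL3 and -0.09, -0.09 and 0.04 in TAZ1, TAZ2 and TAZ3, which follows the medians by library except for the order of CTL1 and TAZ3. Protein-coding genes with transcripts under 1000 bases had a median log2 fold change of -0.12 (689 genes, 15.5% called lower), and the 45 short subunit genes had a median of -0.10 with 3 called lower. The 35 longer subunit genes had a median of -0.08 with 6 called lower (17.1%), and the 12825 longer protein-coding genes a median of 0.01 with 11.3% called lower. With offsets for length and GC content in the same edgeR test, the median of the subunit genes was -0.0067, with 7 called lower and 7 called higher. Over all genes that fit called 13.9% lower and 13.5% higher. It kept NDUFA5, NDUFV1, SDHB, CYC1 and ATP5F1B, added SDHA (-0.12) and NDUFV3 (-0.19) to the lower calls, and turned the sign of 30 of 80 genes. The 7 called higher only there were NDUFA3, NDUFC2, NDUFA6, NDUFB8, NDUFB10, NDUFA13 and UQCR10. The correction takes out any true change that follows length or GC content as well as a technical trend, and these cannot be told apart.

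**Figure D3:**
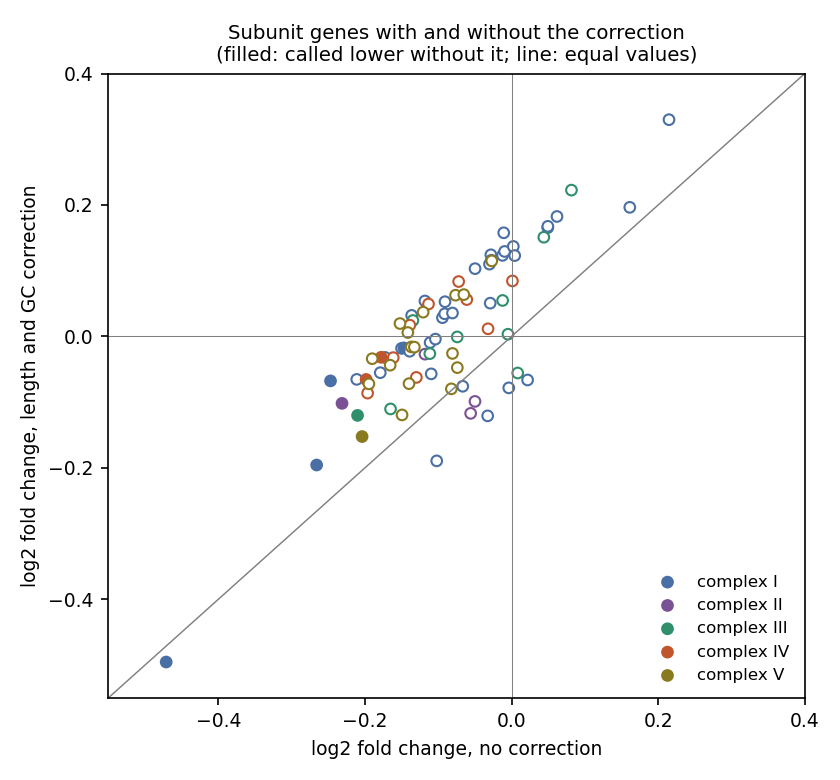
Log2 fold change of 80 subunit genes with the length and GC correction (y axis) against the value without it (x axis), coloured by complex, with filled points for the 9 genes called lower without it and a line of equal values. Most points lie above the line, their median moves from -0.09 to -0.0067, and NDUFA5 stays near -0.5 on both axes.

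Promoter windows of the subunit genes were read from RefSeq (GRCh38.p14), from 250 bases before to 50 after the start site, taking the start nearest to the 5′ end of the gene's leading transcript. They were found for 66 of the 82 genes, 7 of the 9 called among them. The letters searched on both strands were the NRF1 core CGCATGCG, the ETS (GABP) core CCGGAAG, the YY1 core AAGATGG, the SP1 box GGGCGG, the TEAD core GGAATG, the AP-1 site TGANTCA and the E-box CACGTG. TEAD factors are the DNA-binding partners of TAZ. Shown are the windows of NDUFA5, which fell most, of NDUFB3, and of SDHB, COX6B1 and COX8A, which hold the ETS core. Capitals mark every match to these letters.

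NDUFA5, chr7:123557769-123558068, minus strand: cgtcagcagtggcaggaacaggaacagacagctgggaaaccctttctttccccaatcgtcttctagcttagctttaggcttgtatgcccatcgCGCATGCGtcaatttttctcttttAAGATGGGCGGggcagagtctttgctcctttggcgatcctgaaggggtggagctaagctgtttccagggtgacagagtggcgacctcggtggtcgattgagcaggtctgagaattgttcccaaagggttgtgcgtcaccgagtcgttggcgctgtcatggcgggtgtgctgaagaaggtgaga
NDUFB3, chr2:201071751-201072050, plus strand: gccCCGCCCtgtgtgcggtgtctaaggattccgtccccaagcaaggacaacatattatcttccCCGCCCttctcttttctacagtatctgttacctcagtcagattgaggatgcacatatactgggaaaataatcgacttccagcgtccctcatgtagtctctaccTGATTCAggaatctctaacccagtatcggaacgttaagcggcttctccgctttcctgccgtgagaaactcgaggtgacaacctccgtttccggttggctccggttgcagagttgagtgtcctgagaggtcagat
SDHB, chr1:17053983-17054282, minus strand: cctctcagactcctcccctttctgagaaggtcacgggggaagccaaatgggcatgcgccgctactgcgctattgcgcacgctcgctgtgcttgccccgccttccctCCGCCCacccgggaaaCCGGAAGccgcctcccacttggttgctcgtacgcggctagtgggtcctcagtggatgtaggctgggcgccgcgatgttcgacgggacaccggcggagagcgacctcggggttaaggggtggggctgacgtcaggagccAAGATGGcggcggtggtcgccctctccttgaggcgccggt
COX6B1, chr19:35648073-35648372, plus strand: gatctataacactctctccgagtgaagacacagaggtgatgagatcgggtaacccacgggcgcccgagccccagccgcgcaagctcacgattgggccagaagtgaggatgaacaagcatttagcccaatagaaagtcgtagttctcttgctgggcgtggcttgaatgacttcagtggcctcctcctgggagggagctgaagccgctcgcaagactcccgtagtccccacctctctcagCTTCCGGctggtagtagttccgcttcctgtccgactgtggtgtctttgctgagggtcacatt
COX8A, chr11:63974370-63974669, plus strand: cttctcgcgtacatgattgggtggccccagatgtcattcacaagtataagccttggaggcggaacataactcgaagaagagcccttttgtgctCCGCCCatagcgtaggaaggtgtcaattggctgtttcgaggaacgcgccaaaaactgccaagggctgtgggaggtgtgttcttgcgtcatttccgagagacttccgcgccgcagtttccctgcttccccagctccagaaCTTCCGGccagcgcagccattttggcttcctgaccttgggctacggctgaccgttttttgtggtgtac

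NDUFA5 holds the NRF1 core, then a YY1 core that runs into an SP1 box. SDHB holds the ETS core, an SP1 box and a YY1 core just after the start, COX8A an ETS core and an SP1 box, COX6B1 an ETS core alone, and NDUFB3 2 SP1 boxes and an AP-1 site. The NDUFV2 window holds 3 SP1 boxes, and that of NDUFV1 none of the letters. Over all 66 windows the NRF1 core was present in 16.7%, against 3.98% of the windows of 11747 genes tested and 2.54% of 21865 windows in all. The YY1 core was present in 27.3% (7.58% of genes tested, 6.33% of all) and the ETS core in 30.3% (19.1% and 12.3%). At least 1 of these 3 cores was present in 39 of the 66 windows. The SP1 box was present in 62.1% (71.6% and 50.8%), the E-box in 10.6% (9.98% and 7.86%), the TEAD core in 9.09% (10.5% and 13%) and the AP-1 site in 4.55% (4.86% and 7.32%). The 6 windows with the TEAD core were those of NDUFA4, NDUFA13, UQCRC1, UQCR10, COX5A and ATP5F1A, none of which was called. The median log2 fold change of subunit genes with and without a match was -0.12 and -0.09 for the NRF1 core, -0.14 and -0.08 for the ETS core, -0.10 and -0.11 for the YY1 core, and -0.01 and -0.11 for the TEAD core. These shares describe letters, and no test was made on them.

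Complex I is the largest of the complexes. Of its 38 genes 4 fell (10.5%, beside 10.2% of all genes tested), 0 rose and 34 did not pass the test. The median log2 fold change was -0.07 (0.03 with the correction), and 30 of 38 were negative. Without TAZ3, 11 of the 38 were called lower, beside 16.1% of all genes in that fit. The 7 nuclear-encoded core subunits, which hold the NADH site, the iron-sulfur clusters and part of the quinone site, had a median of -0.11 (-0.02 with the correction) with 2 called. The 30 accessory subunits, leaving out NDUFA4, had a median of -0.06, turned to 0.04 by the correction, with 2 called.

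NDUFA5 (Gene ID 4698, chr7:123536997-123601651 in GRCh38) encodes an accessory subunit of the arm that reaches into the matrix. It measured 58.8, 61.3 and 58.0 CPM in control-siRNA and 42.8, 42.1 and 43.6 CPM in TAZ-siRNA. The groups lay far apart and TAZ3 was with TAZ1 and TAZ2. NDUFA5 fell by 0.47 (log2, SE 0.0504, 27.9% lower, adjusted p = 0.00024 in edgeR's test), and it was called whichever of the 6 libraries was left out. Its value with the correction was -0.50.

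NDUFV1 (Gene ID 4723, chr11:67606936-67612554), which binds NADH and the flavin FMN, measured 86.1, 94.6 and 97.5 CPM against 72.1, 76.1 and 83.2 CPM. The groups did not overlap, but CTL1 was close to TAZ3. It fell by 0.27 (log2, SE 0.0656, adjusted p = 0.016, edgeR) and kept the call in 2 of 6 fits without 1 library each, those without CTL1 and without TAZ3. NDUFV2 (Gene ID 4729, chr18:9102642-9134341), its iron-sulfur partner, measured 66.5, 65.4 and 65.7 CPM against 58.3, 58.7 and 61.4 CPM. This was the smallest of the falls called, at -0.15 (SE 0.0476, edgeR adjusted p = 0.049), and it kept the call in 1 of those 6 fits (without TAZ3). It lost the call with DESeq2 (adjusted p = 0.056), with DESeq2 size factors or no filter in edgeR's test (adjusted p = 0.051 and 0.068) and with the correction, where its value was -0.02. On the log2(FPKM + 1) scale it was -0.32 and still called (limma adjusted p = 0.049). NDUFB3 (Gene ID 4709, chr2:201071784-201085750), an accessory subunit of the membrane arm, measured 29.1, 29.2 and 28.8 CPM against 24.3, 24.9 and 24.2 CPM. Its groups were tight and apart, and it fell by 0.25 (SE 0.0532, edgeR adjusted p = 0.0085), with the call lost without CTL2 but kept in the other 5 fits, and a value of -0.07 and no call with the correction.

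The other 5 core subunits did not pass the test. Among them NDUFS1, the largest iron-sulfur subunit, measured 190, 183 and 185 CPM against 188, 184 and 174 CPM (log2 fold change -0.03, SE 0.0488). With the correction its value was -0.12 (edgeR adjusted p = 0.057), and the replicate block with the correction called it (adjusted p = 0.016). Of the genes outside the core, NDUFAB1, the mitochondrial acyl carrier protein that also serves lipoate and iron-sulfur synthesis, measured 44.4, 45.7 and 47.6 CPM against 38.7, 38.0 and 45.5 CPM. Its TAZ3 value lay within the control range, and the log2 fold change was -0.17 (edgeR adjusted p = 0.11, 0.0018 without TAZ3). NDUFA4, named for complex I but found in complex IV, measured 60.8 to 69.5 CPM in control-siRNA and 60.2 to 69.0 CPM in TAZ-siRNA (-0.03, and 0.05 with the correction).

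The highest positive values in complex I belonged to the membrane-arm accessory subunits NDUFA3 and NDUFC2. NDUFA3 measured 11.3, 10.2 and 12.4 CPM against 12.4, 13.5 and 13.4 CPM (log2 fold change 0.21, edgeR adjusted p = 0.11). NDUFC2 measured 34.1, 35.1 and 34.5 CPM against 36.7, 35.8 and 43.5 CPM (0.16, adjusted p = 0.15), with TAZ3 well above the rest. On the TPM scale, which divides by transcript length and so allows genes to be compared, complex I ranged from NDUFV3, an accessory subunit of the NADH-oxidizing module, at a mean of 10.8 TPM to NDUFA13 (also known as GRIM-19) at 370 TPM. NDUFA13 itself had a log2 fold change of -0.0095, which became 0.13 with the correction. TPM depends on the transcript to which reads were assigned, and the low end holds genes with long assigned transcripts, such as NDUFA9 (8356 bases, 11.6 TPM) and NDUFS1 (11568 bases, 35.2 TPM).

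**Figure D4:**
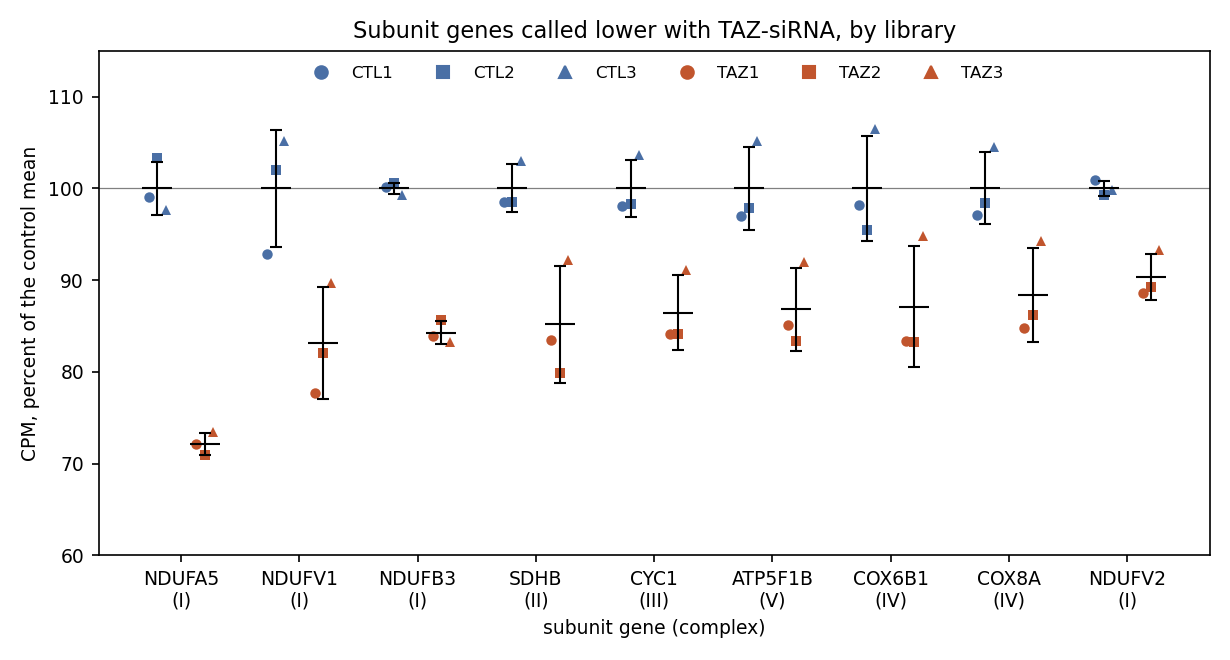
CPM of the 9 subunit genes called lower, as a percentage of the gene's control mean (y axis, not starting at 0), with a point per library and the mean and SD (n = 3) as bars. The 3 TAZ-siRNA points lie below the 3 control-siRNA points in all 9 genes, and TAZ3 is the highest of the TAZ-siRNA points in 8 of them, NDUFB3 being the exception.

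Complex II, succinate dehydrogenase, also belongs to the tricarboxylic acid cycle and has no subunit made in the mitochondrion. Of its 4 genes 1 fell, beside 10.2% of all genes tested, and all 4 had a negative value (median -0.09, and -0.10 with the correction). SDHB (Gene ID 6390, chr1:17018722-17054032), the iron-sulfur subunit, measured 85.8, 85.8 and 89.7 CPM against 72.7, 69.5 and 80.3 CPM. It fell by 0.23 (log2, SE 0.0585, edgeR adjusted p = 0.018) with groups that did not overlap, and it kept the call only without TAZ3 when 1 library was left out. With the correction it was still called, at -0.10 (edgeR adjusted p = 0.047). SDHD, a membrane anchor, measured 108, 106 and 108 CPM against 99.0, 97.4 and 101 CPM, apart in every library but not called (-0.12, edgeR adjusted p = 0.077). SDHA, the flavoprotein that oxidizes succinate, measured 126, 127 and 131 CPM against 123, 125 and 122 CPM (-0.06, adjusted p = 0.39 in the same test). SDHC, the other anchor, measured 57.6, 61.7 and 63.2 CPM against 60.3, 58.9 and 57.0 CPM (-0.05, adjusted p = 0.55). On the log2(FPKM + 1) scale, which depends on the assigned transcript, limma gave SDHC 0.58 and SDHA 0.06. The summed CPM of complex II was 378 to 392 in control-siRNA and 350 to 360 in TAZ-siRNA, a change of -7.38% with no overlap, and here TAZ3 was not apart from TAZ1 and TAZ2. Without TAZ3, 2 of the 4 genes were called lower, beside 16.1% of all genes in that fit.

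Complex III passes electrons from ubiquinol to cytochrome c, and 1 of its 10 genes fell, beside 10.2% of all genes tested. The median log2 fold change was -0.04 (0.0012 with the correction). CYC1 (Gene ID 1537), the cytochrome c1 that hands electrons on, measured 98.3, 98.5 and 104 CPM against 84.3, 84.3 and 91.3 CPM. It fell by 0.21 (log2, SE 0.0512, edgeR adjusted p = 0.015), kept the call in the same 2 fits as NDUFV1, and was also called with the correction (-0.12). UQCRFS1, the Rieske iron-sulfur protein that works beside it, measured 62.3, 62.5 and 66.7 CPM against 59.9, 62.7 and 68.4 CPM (-0.0049, with the sign turned to 0.0033 by the correction). The core proteins UQCRC1 and UQCRC2 had values of -0.01 (0.05 with the correction) and -0.07. UQCRQ, a small subunit at the ubiquinone end, measured 76.6, 74.3 and 81.2 CPM against 64.1, 67.6 and 75.3 CPM (-0.17, edgeR adjusted p = 0.095), and UQCR11, another small subunit, had a value of -0.11. Without TAZ3, 3 of the 10 genes were called lower, beside 16.1% of all genes in that fit.

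UQCRH, the acidic hinge protein that helps cytochrome c to dock, had the highest level of complex III at a mean of 552 TPM. Its CPM was 141, 138 and 158 in control-siRNA and 121, 128 and 149 in TAZ-siRNA, so TAZ3 lay within the control range (-0.13, edgeR adjusted p = 0.26, and 0.02 with the correction). UQCRHL is a near-identical copy, with 47, 31 and 43 counts against 34, 36 and 57 counts. Its log2 fold change of 0.08 had an SE of 0.325, and reads of the 2 copies may have been split between them. Rows annotated as pseudogenes of the subunit genes numbered 120 and held 0.256 to 0.307% as many counts as the subunit genes themselves.

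Complex IV, cytochrome c oxidase, is built around 3 subunits of the mitochondrial genome, and the nuclear genes here encode the small subunits around them. Of 12 genes 11 were tested and 2 fell (18.2%, beside 10.2% of all genes tested). The median log2 fold change was -0.13 (0.01 with the correction), and 10 of 11 were negative. COX6B1 (Gene ID 1340, chr19:35648323-35658782), on the intermembrane side, measured 105, 102 and 114 CPM against 89.3, 89.2 and 102 CPM. CTL2 and TAZ3 were nearly level, and the gene fell by 0.20 (SE 0.0641, edgeR adjusted p = 0.049). COX8A (Gene ID 1351, chr11:63974620-63976543), one of the smallest subunits, measured 146, 148 and 157 CPM against 127, 129 and 141 CPM and fell by 0.18 (SE 0.0551, edgeR adjusted p = 0.042). Both kept the call only without TAZ3 when 1 library was left out, and lost it with the correction (-0.07 and -0.03) and with limma on FPKM. COX6B1 also lost it with DESeq2 size factors and with upper-quartile factors (edgeR adjusted p = 0.051 in each).

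COX4I1, the ubiquitous form of the regulatory subunit 4, measured 177, 181 and 203 CPM against 152, 158 and 179 CPM (-0.20, edgeR adjusted p = 0.077), so only TAZ3 reached the control range. COX6A1, with the highest level of the complex at 662 TPM, had a value of -0.16 (adjusted p = 0.13 in the same test). COX7A2, the form of subunit 7A found in most tissues, had -0.14, with the sign turned to 0.02 by the correction. COX7A2L, which is found in respiratory supercomplexes, had -0.13, and COX5B, which binds zinc, had -0.06 (0.06 with the correction). COX5A measured 82.6, 78.9 and 83.3 CPM against 78.9, 76.4 and 89.6 CPM (0.0012, and -0.0032 with upper-quartile factors). COX7A1, the form of heart and skeletal muscle, had 0 counts in all 6 libraries. The floor of 3 counts corresponds to 0.0411 to 0.0618 CPM per library and covers counting error only. Without TAZ3, 7 of the 11 genes of complex IV were called lower, beside 16.1% of all genes in that fit.

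In ATP synthase all 17 genes tested had a negative log2 fold change (-0.20 to -0.03, median -0.14). Of these 1 was called lower (5.88%, beside 10.2% of all genes tested). With the correction the median was -0.03, the signs were mixed and 1 was called lower. ATP5F1B (Gene ID 506, chr12:56638175-56645984), the catalytic beta subunit, had the highest level of all subunit genes at a mean of 853 TPM. It measured 706, 711 and 765 CPM against 619, 606 and 669 CPM, with no overlap. It fell by 0.20 (log2, SE 0.0631, edgeR adjusted p = 0.042), kept the call only without TAZ3 when 1 library was left out, and was called with the correction (-0.15). Its partner in the F1 head, the alpha subunit ATP5F1A, measured 368, 381 and 399 CPM against 355, 357 and 373 CPM (-0.08, edgeR adjusted p = 0.33). ATP5F1C, the gamma subunit of the rotor, had -0.07, which the correction turned to 0.06.

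The 3 genes of the c-ring, ATP5MC1, ATP5MC2 and ATP5MC3, encode the same mature protein with different import sequences. Their summed CPM was 238, 241 and 267 in control-siRNA and 216, 218 and 246 in TAZ-siRNA (median log2 fold change -0.17, -0.05 with the correction, 0 called), so TAZ3 lay within the control range. ATP5MC2 had the lowest value, at -0.19 (edgeR adjusted p = 0.070). ATP5MPL, a small membrane subunit, measured 32.9, 31.8 and 33.7 CPM against 27.4, 27.6 and 31.1 CPM. Its groups did not overlap, and at -0.19 it was the first gene past the threshold in edgeR's test (adjusted p = 0.058). The 4 genes of the peripheral stalk had a median of -0.13, turned to 0.01 by the correction, with 0 called. Among them ATP5PO, the protein that confers oligomycin sensitivity, had -0.03 (0.11 with the correction). ATP5MGL, a copy of ATP5MG, had 0, 0 and 1 counts against 6, 1 and 1 counts, which was at or under the floor of 3 counts in 5 of the 6 libraries, and was not tested. Without TAZ3, 13 of the 17 genes were called lower, beside 16.1% of all genes in that fit.

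**Figure D5:**
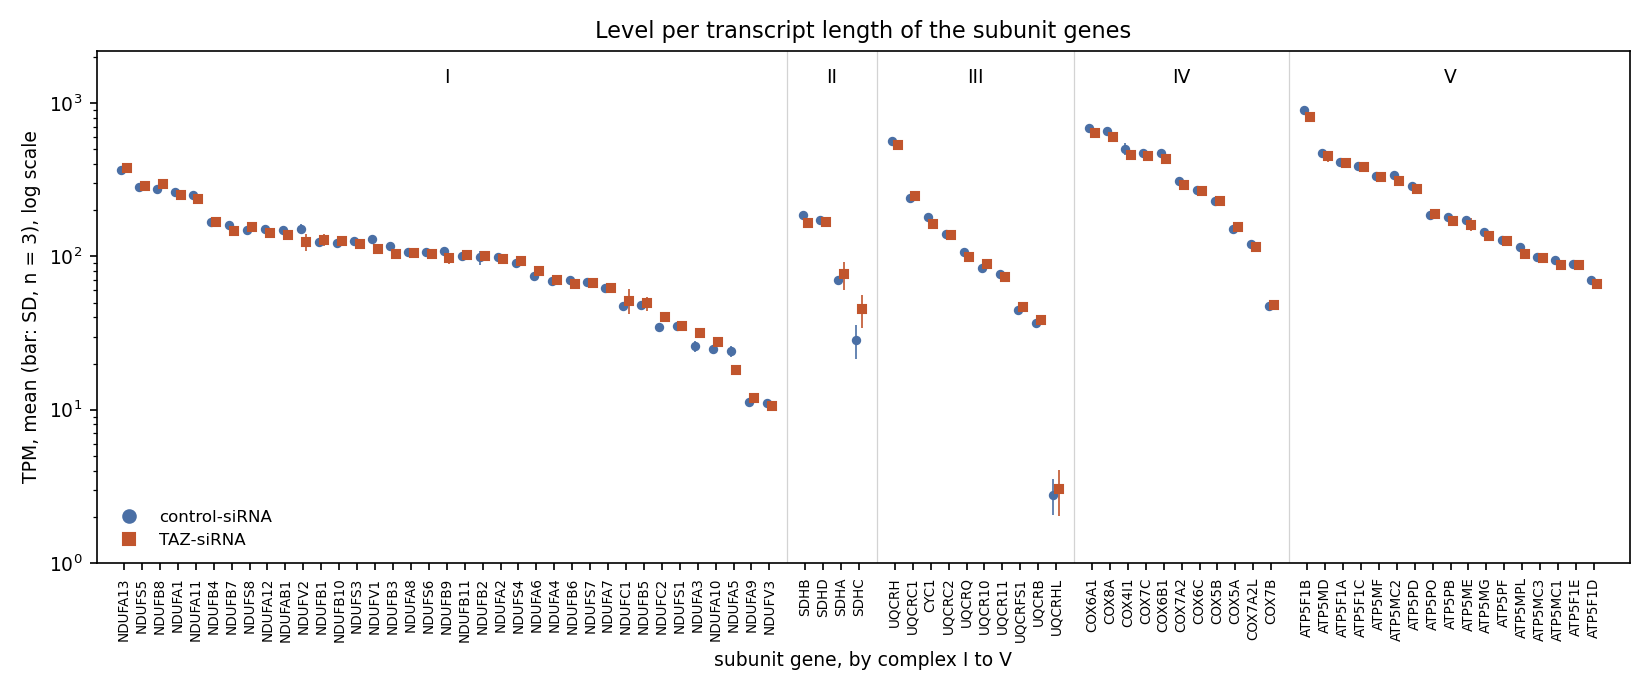
Mean TPM (log scale, bars SD, n = 3) of 79 of the 80 subunit genes tested, UQCRHL included, by complex and in order of level, with circles for control-siRNA and squares for TAZ-siRNA. Levels range from UQCRHL at 2.90 to ATP5F1B at 853 TPM, and the groups lie close together for nearly every gene.

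Transcripts within genes were compared by the leading transcript's share of the gene's TPM. In 48 subunit genes a further transcript reached a mean of 1 TPM, and in 9 of them (18.8%) the groups did not overlap, against 12.5% of 7737 genes tested in the same way. In 7 of the 9 the means differed by less than 10 percentage points. The leading transcript of NDUFA10, an accessory subunit of complex I, held 51.7, 39.2 and 51.9% in control-siRNA and 78.2, 76.8 and 82.3% in TAZ-siRNA. That of ATP5PF, a stalk subunit, held 66.8, 67.3 and 67.4% against 43.5, 48.0 and 43.2%. NDUFA10 and ATP5PF were picked after their values were seen, and single transcripts are estimated with less precision than genes. SDHA's leading transcript ranged from 2.72 to 68.9% over the 6 libraries with no order by group, so its TPM and FPKM depend on this assignment.

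The subunits made in the mitochondrion and the helper genes were compared through lists of names. Of the 13 mitochondrially encoded subunits 0 fell and 1 rose in edgeR's test, beside 10.2% and 11.9% of all genes tested. The median log2 fold change of the 13 was 0.06, and 6 were negative. DESeq2 also called MT-ND4 (edgeR log2 fold change -0.15, DESeq2 adjusted p = 0.025) and MT-ND4L (-0.13, adjusted p = 0.047) lower and MT-ND5 (0.19, adjusted p = 0.017) higher. MT-ND6, a membrane subunit of complex I, rose by 0.28 (65.0 ± 5.73 against 79.0 ± 7.54 CPM, SD, n = 3 a group, edgeR adjusted p = 0.031). Its groups overlapped (CTL1 70.7 and TAZ3 70.7 CPM), it kept the call in 2 of 6 fits without 1 library each, and it lost the call with the correction (0.46, edgeR adjusted p = 0.070). With the correction the mitochondrial median was 0.18, and 5 other genes rose, MT-ND5, MT-CO2, MT-CO3, MT-ATP6 and MT-ATP8, beside 13.5% of all genes. Of 6 paralogs with tissue-limited expression 4 were at or near 0, and the others were NDUFA4L2 (-0.23, adjusted p = 0.065) and COX7B2 (0.21, adjusted p = 0.062 in the same edgeR test). COX7B2 was called higher with the correction (0.38, edgeR adjusted p = 0.00033) and with DESeq2 (adjusted p = 0.049).

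Assembly factors include genes with larger falls than most subunits, and the counts by list stand beside 10.2% of all genes called lower. For complex I, 4 of 16 fell and 0 rose (median -0.14, -0.07 with the correction), with ACAD9 (-0.31), ECSIT (-0.37) and TIMMDC1 (-0.25) having the smallest adjusted p. TIMMDC1 kept the call in 4 of 6 fits without 1 library each, and with the correction (-0.22). For complex III, 2 of 6 fell and 1 rose (median -0.09, -0.04 with the correction). BCS1L (-0.41) inserts the Rieske protein, LYRM7 (-0.33) chaperones it, and UQCC1 (0.17), called in 2 of 6 fits without 1 library each, acts on cytochrome b. For complex IV, 4 of 22 fell and 0 rose (median -0.08, -0.02 with the correction), with the smallest adjusted p in SCO1 (-0.43, 75.7 ± 1.07 against 56.2 ± 1.09 CPM), which delivers copper, COX15 (-0.31), which makes heme A, and LRPPRC (-0.30), which stabilizes mitochondrial mRNAs. SDHAF3 (-0.26, edgeR adjusted p = 0.0495) was the 1 of 4 called for complex II (median -0.15, -0.02 with the correction), and 0 of 4 were called for ATP synthase (median -0.04, turned to 0.03). SDHAF3 lost the call whichever library was left out, with DESeq2 (adjusted p = 0.057) and with the correction (-0.10). ACAD9, ECSIT, BCS1L, LYRM7, SCO1, COX15 and LRPPRC were called whichever library was left out and with the correction, in edgeR's test with adjusted p between 0.00025 and 0.0060. No test compared these lists with the subunit genes.

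Of the 13 enzymes of the tricarboxylic acid cycle 5 fell and 0 rose (median -0.10, -0.05 with the correction), and those with the smallest adjusted p were SUCLG2 (-0.34), IDH3B (-0.31) and IDH3A (-0.21). Of the 5 carriers and translocases (median -0.09, -0.14 with the correction) SLC25A5 fell (-0.22, edgeR adjusted p = 0.034, called in 1 of 6 fits without 1 library each, and at -0.14 with the correction), while CYCS, cytochrome c itself, measured 230 ± 6.78 against 226 ± 23.3 CPM. Among 13 regulators 2 fell and 0 rose (median -0.01, turned to 0.01 by the correction), MYC by 0.30 (adjusted p = 0.0097) and TFB2M, a mitochondrial transcription factor, by 0.24 (adjusted p = 0.048, same edgeR test). MYC kept the call in 4 of 6 fits without 1 library each, and with the correction (-0.36, edgeR adjusted p = 0.017). TFB2M kept the call in 1 of those 6 fits, and lost it with the correction (-0.16). PPRC1 (-0.24, edgeR adjusted p = 0.0019) and TFAM (-0.16, adjusted p = 0.012) were called lower with the correction. NRF1 (0.11), GABPA (0.08) and YY1 (0.10), for whose sites the promoters were searched, were not called. Without TAZ3 the counts called lower were 7 of the complex I assembly factors, 1 for complex II, 2 for complex III, 6 for complex IV and 0 for ATP synthase. They were 6 of the cycle enzymes, 2 of the carriers, 3 of the regulators, 1 of the mitochondrially encoded subunits and 1 of the paralogs, beside 16.1% of all genes. Called higher without TAZ3 were MT-ND5 (0.23), MT-ND6 (0.36), UQCC1 (0.16) and PPARGC1A (0.51, edgeR adjusted p = 0.0032), beside 17.6% of all genes.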

How the data were processed

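RNA of 3 control-siRNA and 3 TAZ-siRNA preparations was made into TruSeq stranded mRNA libraries. HISAT2 alignment to GRCh38 and StringTie quantification over RefSeq were run by the authors, and their versions and use of strand are not given in the sources used here. The submitters' processing notes also name Bowtie 0.12.2 and the build mm8. The estimated counts deposited are whole numbers per gene (46427 genes) and transcript (170322). In the deposited FPKM the authors divided by library size and transcript length, and in the deposited TPM by length before scaling to a common total. Replicates are numbered as in the columns, 1 to 3, whereas the titles run from 3 to 5.

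Groups were compared with edgeR 4.0.16 in R 4.3.3 (TMM, filterByExpr with a minimum count of 10, robust quasi-likelihood F test), p-values adjusted by Benjamini-Hochberg for 16966 genes tested and calls at an adjusted p under 0.05. Limma 3.58.1 on log2(FPKM + 1), DESeq2 1.42.0, other normalizations, no filter, a block, splines (5 df) on transcript length and GC content (known for 92.1% of genes and 100% of the subunit genes tested) and leaving out each library were alternatives. The methods were tested on simulated data with known changes, the same noise for all genes and a length trend put into TAZ1 alone. A trend in GC content, or a trend shared by several libraries, was not simulated. Replicates differed by more than sampling noise (chi-square per degree of freedom 6.79 to 41.0). Named per complex were the highest and lowest TPM, the 3 smallest adjusted p, the largest called changes and fixed core subunits, plus at most 3 called genes per other list. Further genes were named after their values were seen. The subunit genes, lists and letters searched were chosen with earlier results of these data known. A planned single-gene result is not reported here.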

Additional observations from a re-analysis of the deposited data

How the results depend on the processing

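The count of 9 subunit genes called lower stayed within 7 to 9 with other size factors, DESeq2's Wald test, limma on FPKM, no filter, the readthrough gene included, and the length and GC correction with or without the replicate block. With the replicate number as a block (replicate block) it was 25, and the share of all genes called in that fit was not set beside it. Whether same-numbered preparations were paired is not stated. Over all genes tested, same-numbered libraries deviated from their group means with correlations of -0.017, 0.0086 and 0.070. Leaving out a library gave 1 to 36 (CTL1 4, CTL2 1, CTL3 2, TAZ1 2, TAZ2 2, TAZ3 36) and a median of -0.13 to -0.07. Of these counts only that without TAZ3 has a share of all genes beside it (16.1%), and the cause was not tested. The count called higher was 0 throughout except 7 with the correction, alone or with the replicate block, and the median then was -0.0067 and -0.0072. WWTR1 stayed between -3.63 and -3.15. With the correction 30 of the 80 signs turned, in genes not called without it; the values that follow cover the 35 tested genes among the 37 named by rule. With the correction, alone and with the block, values were ATP5F1C 0.0636 and 0.0634, ATP5PO 0.11 and 0.12, COX5B 0.0561 and 0.0561, COX7A2 0.0171 and 0.017, NDUFA13 0.13 and 0.13, NDUFA4 0.0506 and 0.0506, UQCRC1 0.0547 and 0.0543, UQCRFS1 0.0033 and 0.0014, and UQCRH 0.0242 and 0.0241. COX5A was -0.0032 with upper-quartile factors, -0.0028 with no filter and -0.0024 with the block. On FPKM, SDHA was 0.063, SDHC 0.58 and UQCRFS1 0.0018. Leaving out a library gave ranges of -0.0669 to 0.0087 for ATP5PO, -0.0668 to 0.0498 for COX5A, -0.0969 to 0.0457 for NDUFA13, -0.091 to 0.0258 for NDUFA4, -0.0547 to 0.0014 for NDUFS1, -0.0734 to 0.0372 for UQCRC1, -0.0564 to 0.0399 for UQCRFS1 and -0.23 to 0.35 for UQCRHL. Among the subunit genes, counts were low only in UQCRHL, ATP5MGL and COX7A1, and the effect of depth was not tested.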

Other observations

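Readthrough genes that span a subunit gene and its neighbour were outside the rule. ATP5MF-PTCD1, which joins ATP5MF and PTCD1, had 557, 322 and 142 counts in control-siRNA and 929, 663 and 524 counts in TAZ-siRNA, so the groups did not overlap on the CPM scale (log2 fold change 1.09, SE 0.384). It was not called by edgeR's quasi-likelihood test (adjusted p = 0.11) and had an adjusted p of 0.0496 with DESeq2. PTCD1, which shares its 3′ part, measured 20.2, 20.7 and 23.3 CPM against 13.2, 14.9 and 16.3 CPM and fell by 0.53 (log2, edgeR adjusted p = 0.0026). ATP5MF had a log2 fold change of -0.08. NDUFC2-KCTD14 had 12, 39 and 3 counts against 92, 65 and 20 counts, and NDUFC2, with a value of 0.16, shares exons with it. How reads were divided between these overlapping genes was not tested.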
